A study of Mus musculus with 10 samples.

Results

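The MS4A genes encode small membrane proteins that cross the cell membrane several times, and 9 of them were followed here: Ms4a4a, Ms4a4b, Ms4a4c, Ms4a6b, Ms4a6c, Ms4a6d, Ms4a7, Ms4a8a and Ms4a14. The members were taken by symbol from the table of read counts per gene, whose NCBI gene identifiers were paired with mouse symbols. All 9 of the 9 listed genes had a row, among 39488 rows in all. RNA was sequenced from macrophages of the peritoneal cavity of C57BL/6 mice aged 8 weeks, in 5 control and 5 ox-LDL libraries. Thioglycollate had been injected to elicit these cells, as the methods state. According to the sample labels, ox-LDL cells were primed with LPS at 100 ng/ml and then received oxidized low-density lipoprotein (ox-LDL) at 100 µg/ml for 16 h, and control cells were untreated. One protocol field gives the ox-LDL stimulation for every sample, and a figure legend of the study leaves room for LPS having been given to controls as well. The labels of the groups were followed, and by these a difference between the groups contains the effects of LPS and of ox-LDL, which cannot be told apart. No label says whether the 5 libraries of a group came from separate animals or cultures, so p-values measure the spread between these libraries, which may be technical. In these bulk samples, fewer cells of a type and less RNA per cell cannot be told apart.

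The family is best known for Ms4a1, which encodes the B cell antigen CD20, and for Ms4a2, which encodes a chain of the IgE receptor of mast cells. Several other members are expressed in cells of the myeloid lineage. In macrophages, MS4A4A has been described in alternatively activated cells, where it associates with the beta-glucan receptor Dectin-1, and human MS4A genes have been linked to levels of soluble TREM2, a lipid receptor of macrophages and microglia. MS4A6D has been described in a complex with VSIG4 that restrains the NLRP3 inflammasome, the sensor whose priming by LPS and triggering by ox-LDL is a common model of lesion macrophages.

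The genes lie in one cluster on mouse chromosome 19, together with other MS4A genes and a few genes of other names. In the GENCODE annotation of NCBIM37 (mm9), the build to which the authors aligned their reads, 8 of the 9 members were found by name, between bases 11141962 and 11679339. Ms4a8a (11141962 to 11155593), Ms4a14 (11375984 to 11388823) and Ms4a7 (11395529 to 11410636) lie on the minus strand at one end. They are followed by Ms4a4c (11479260 to 11501736), Ms4a4b (11518043 to 11538039), Ms4a6c (11543858 to 11556687) and Ms4a6b (11591002 to 11605746) on the plus strand, and by Ms4a6d (11661094 to 11679339) on the minus strand. Ms4a4a is not named in this annotation, and its RefSeq promoter matched mm9 at chr19:11449728-11450027 on the plus strand, between Ms4a7 and Ms4a4c. None of the 8 named members overlapped another annotated gene.

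Neighbours in this cluster include close copies of each other, which matters for how reads were assigned. By global alignment of their coding sequences, Ms4a4b and Ms4a4c were identical at 91.8% of 681 aligned bases, with a longest identical stretch of 127 bases. Ms4a6b and Ms4a6c were identical at 86.3%, Ms4a6b and Ms4a6d at 81.8%, and Ms4a6c and Ms4a6d at 79.7%, with longest identical stretches of 55, 81 and 44 bases. Ms4a4a was not aligned. The translated proteins were identical at 84.5%, 72.9%, 71.3% and 65.0% of residues in the same order of pairs. The deposited counts were not whole numbers in 10 of 10 libraries for Ms4a6b and for Ms4a6c and in 2 of 10 for Ms4a4c, whereas for the other 6 members every count was whole within 0.001. How reads that match several genes were shared out is not given in the sources used here, so the levels of Ms4a6b, Ms4a6c and Ms4a4c carry that uncertainty.

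The promoters of 2 pairs of copies are shown because the members of each pair gave different RNA levels in the libraries described below. They are the 250 bases before the start in RefSeq, matched to mm9 and written 5′ to 3′ on the plus strand. In Ms4a6b (chr19:11592799-11593048) and Ms4a6c (chr19:11543608-11543857), capitals mark the match to GAAANNGAA, the core of the interferon-stimulated response element.
Ms4a6b: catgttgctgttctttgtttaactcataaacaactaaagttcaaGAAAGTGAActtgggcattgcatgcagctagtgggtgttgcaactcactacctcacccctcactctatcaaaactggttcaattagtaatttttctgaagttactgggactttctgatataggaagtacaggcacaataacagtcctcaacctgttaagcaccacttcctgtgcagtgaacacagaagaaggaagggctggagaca
Ms4a6c: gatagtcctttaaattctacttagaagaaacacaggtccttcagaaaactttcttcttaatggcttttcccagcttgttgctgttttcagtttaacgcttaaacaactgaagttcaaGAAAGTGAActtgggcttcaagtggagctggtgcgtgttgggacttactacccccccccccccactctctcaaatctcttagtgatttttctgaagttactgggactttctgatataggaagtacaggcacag
The same 9 letters stood in both windows, from position -206 in Ms4a6b and from -133 in Ms4a6c, counted from the start as 0. Over windows that also held the first 50 transcribed bases, this pair was identical at 85.3% of 225 aligned bases. In Ms4a4b (chr19:11517798-11518047) and Ms4a4c (chr19:11481901-11482150), capitals mark the longest stretch that both windows share, of 20 bases.
Ms4a4b: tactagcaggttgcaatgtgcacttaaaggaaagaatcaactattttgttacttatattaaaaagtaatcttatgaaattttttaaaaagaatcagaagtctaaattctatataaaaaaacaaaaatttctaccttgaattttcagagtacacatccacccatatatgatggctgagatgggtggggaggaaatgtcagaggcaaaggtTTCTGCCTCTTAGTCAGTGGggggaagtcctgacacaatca
Ms4a4c: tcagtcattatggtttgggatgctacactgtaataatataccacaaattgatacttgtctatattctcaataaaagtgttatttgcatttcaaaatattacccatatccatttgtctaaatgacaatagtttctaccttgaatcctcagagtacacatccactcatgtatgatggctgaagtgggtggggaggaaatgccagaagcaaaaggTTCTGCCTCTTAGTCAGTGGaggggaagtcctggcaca
Over windows that again included the first 50 transcribed bases, this pair was identical at 81.9% of 281 aligned bases. The starts of Ms4a4c and Ms4a6b in RefSeq lie inside the genes as annotated in mm9, downstream of the first annotated base.

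Promoter windows were in the RefSeq table for 8 of the 9 members, and 4 short motifs were searched in them on both strands. GAAANNGAA was found in the windows of 3 members, Ms4a6b, Ms4a6c and Ms4a7, and in 8.53% of 32544 promoter windows of all genes. TGANTCA, bound by AP-1, was found in Ms4a4b, Ms4a7, Ms4a8a and Ms4a14, against 7.79% of all windows. Ms4a7 had 2 windows, and a match in either was counted, whereas the percentages over all genes are per window. GAAANNGAA stood in both windows of Ms4a7, and TGANTCA in the second alone. GGANTTTCC, a core bound by NF-κB, was found in Ms4a4a alone among the members, against 1.26%. GAGGAAGT, bound by the macrophage factor PU.1, was found in 0 of the 8, against 3.11%. None of the 4 motifs stood in the window of Ms4a4c. A match is a description of letters in a window and no evidence that a factor binds there.

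The libraries were close to even in depth, with 20094647 to 20687289 counts in the controls and 19257131 to 20358017 in the ox-LDL group. Levels are given as CPM, counts scaled to a common library size by TMM, except where FPKM is named. The TMM factor was 0.593 in ox-LDL replicate 2 and between 0.837 and 1.19 in the other libraries. Control replicates 1 and 4 and ox-LDL replicate 2 held relatively more counts of short genes, with a Spearman correlation of -0.660 to -0.487 between a gene's deviation and its length over 12654 genes, against 0.0592 to 0.536 in the other 7 libraries. Of the 8 macrophage markers, Lyz2 was at 9209 CPM or more and Cd68 at 1048 or more in every library by library size alone. The other markers were lower. Their lowest values in any library were 175 CPM for Adgre1, 75.6 for Cd14, 47.9 for Csf1r, 40.5 for Itgam, 31.8 for Mertk and 30.6 for Fcgr1. The summed CPM of markers of other cells, scaled likewise, was 44.1 to 56.3 in controls and 12.1 to 31.2 in ox-LDL libraries for B cells, of which Cd22 was the main part. The sum was 1.16 to 2.55 and 1.23 to 1.82 for T and NK cells, 6.32 to 15.1 and 13.2 to 89.4 for neutrophils (nearly all S100a8), and 3.14 to 11.2 and 0.564 to 3.00 for mast cells, basophils and eosinophils. For dendritic cells it was 1.35 to 2.68 and 2.22 to 3.91, and for large resident macrophages 28.5 to 64.1 and 19.3 to 41.0. For mesothelial and stromal cells it was 14.0 to 42.9 and 59.1 to 125, of which Dcn was the main part. Msln, Upk3b and Krt19 of that list were at 1.47 CPM or less in every library. Summed macrophage markers, mostly Lyz2, were at 22723 to 42039 in the controls and 13124 to 27967 in the ox-LDL group. Of the listed genes that could be tested in edgeR at the threshold used below, 2 of 8 for macrophages, 1 of 5 for resident macrophages, 1 of 2 for dendritic cells, 1 of 1 for neutrophils and 2 of 3 for mesothelial and stromal cells were higher in the ox-LDL group, and 1 of 2 for B cells and 1 of 3 for mast cells, basophils and eosinophils were lower. The part of these cells in the results below was not tested.

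Of the 9 members, 8 had enough counts to be tested, and 3 of these, Ms4a6d, Ms4a4c and Ms4a6c, rose in the ox-LDL libraries at an adjusted p below 0.01 in edgeR's quasi-likelihood test with Benjamini-Hochberg adjustment over all genes. Over all 12654 genes tested, 9.40% were called higher and 5.35% lower by this rule. None of the 8 was called lower, and at an unadjusted p below 0.05 none was lower and 5 were higher, against 15.8% lower and 23.0% higher of all genes tested. DESeq2 and limma likewise called 0 members lower. The groups did not overlap for 2 members, Ms4a6d and Ms4a4c, which were higher in every ox-LDL library, against 11.6% of all genes tested that were higher without overlap and 9.11% that were lower without overlap. The median log2 fold change of the 8 members tested was 1.66, and 7 of the 8 had a positive value. Over all genes tested, the median was 0.10 and 56.2% were positive. With libraries scaled by their size alone the median of all genes was -0.09 and that of the 8 members was 1.37, with the same 7 of 8 positive. The filter on low counts lets a gene pass through a single group, but all 8 members tested had at least 10 counts in every library. The counts of members given here describe these 8 genes and not the whole family.

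**Figure D1:**
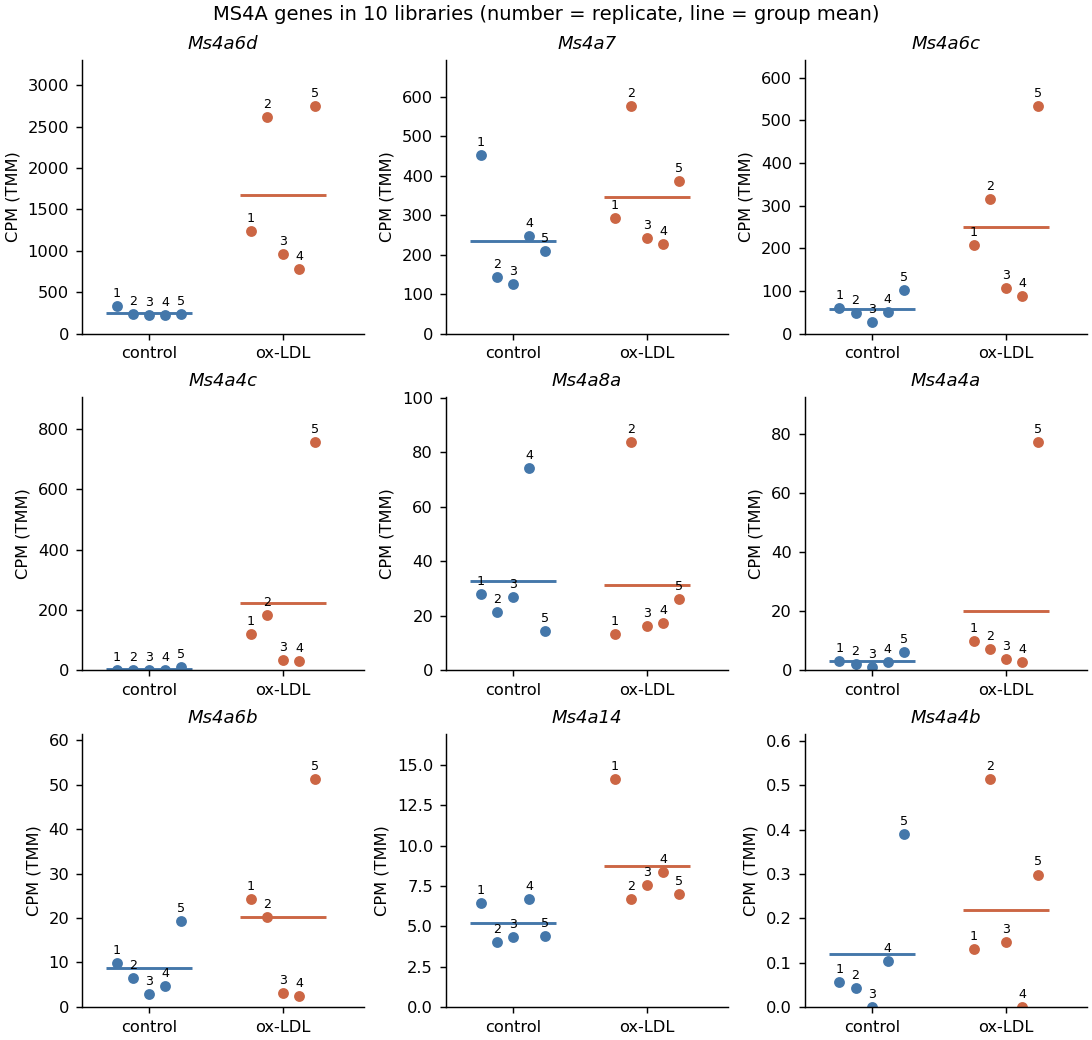
TMM-scaled CPM (y axis, linear and different for each gene) of the 9 MS4A genes in control (blue) and ox-LDL (orange) libraries, with the replicate number above each point and a line at the group mean. Ms4a6d and Ms4a4c were higher in every ox-LDL library than in any control, and ox-LDL replicate 5 was the highest library for 5 of the 9 genes.

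Ms4a6d was the most abundant member after treatment. Its level was 330, 238, 218, 224 and 235 CPM in control replicates 1 to 5 and 1239, 2618, 961, 782 and 2755 CPM in ox-LDL replicates 1 to 5. The lowest ox-LDL library stood far above the highest control, and replicates 2 and 5 stood well above the other ox-LDL libraries in CPM. For replicate 2 this rests on its TMM factor of 0.593. In FPKM, scaled by library size, it was at 1237 against 1191 in replicate 1. The group means were 249 ± 45.8 and 1671 ± 942 CPM (SD, n = 5 each), and edgeR estimated a log2 fold change of 2.75 ± 0.39 (SE; quasi-likelihood test with Benjamini-Hochberg adjustment, adjusted p = 3.99e-04). A two-sided exact permutation test of mean log2(CPM + 1) gave p = 0.00794, the smallest that 5 libraries against 5 allow. The call held under all 25 alternatives tried, with log2 fold changes from 2.37 to 2.93.

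Ms4a4c, a paralog expressed in monocytes, had the steepest change of the family. It was at 1.83, 1.41, 1.20, 0.876 and 11.3 CPM in the controls and at 120, 183, 33.7, 29.8 and 755 CPM in the ox-LDL libraries. Replicate 5 was the highest library in both groups, and even so the highest control lay below the lowest ox-LDL library. The means were 3.32 ± 4.47 and 224 ± 304 CPM (SD, n = 5 each), and the estimate was 6.07 ± 1.15 on the log2 scale (SE; edgeR, adjusted p = 0.00230). The exact permutation test gave p = 0.00794. The estimate was 7.39 when control replicate 5 was left out and 4.80 when ox-LDL replicate 5 was. The call was lost when genes with few counts were kept in the edgeR test (adjusted p = 0.0232).

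Ms4a6c had a level between those of its paralogs. It was at 60.0, 49.1, 26.8, 50.4 and 103 CPM in the controls and at 208, 314, 106, 88.7 and 534 CPM in the ox-LDL libraries. In CPM, the groups overlapped by a single library, since control replicate 5 lay above ox-LDL replicate 4. In FPKM, control replicate 5 (82.6) lay above both ox-LDL replicate 3 (78.5) and replicate 4 (67.5). The means were 57.8 ± 27.9 and 250 ± 183 CPM (SD, n = 5 each), or 2.11 ± 0.51 on the log2 scale (SE; edgeR, adjusted p = 0.00920). The exact permutation test gave p = 0.0159. The adjusted p lay close to the threshold of 0.01 and was above it, at up to 0.0390, in 13 of 25 alternatives. Those 13 included 7 of the 10 fits that left out a single library, and the log2 fold change stayed between 1.65 and 2.42.

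Ms4a4a, the member described in alternatively activated macrophages, did not pass the threshold. Its levels were 3.04, 1.97, 1.16, 2.88 and 6.04 CPM in the controls and 9.96, 7.11, 3.80, 2.82 and 77.0 CPM in the ox-LDL libraries. Ox-LDL replicate 5 alone was at 13.0 times the mean of the other ox-LDL libraries. Of these others, replicates 1 and 2 lay above every control in CPM, and replicates 3 and 4 lay within the control range. For replicate 2 this rests on its low TMM factor. In FPKM, scaled by library size, it was at 5.50, below control replicate 5 at 9.83. The change was 2.74 ± 0.88 on the log2 scale (SE; edgeR, adjusted p = 0.0389; exact permutation test, p = 0.0635). Without ox-LDL replicate 5 it was 0.97, and without control replicate 5 it was 3.16. With both left out, a fit chosen after the data were seen, it was 1.32 ± 0.45 (SE; edgeR, adjusted p = 0.0628).

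Ms4a6b, the closest copy of Ms4a6c, had 9.96, 6.59, 2.91, 4.69 and 19.4 CPM in the controls and 24.2, 20.1, 3.17, 2.54 and 51.2 CPM in the ox-LDL libraries. In CPM, ox-LDL replicate 4 lay below every control, replicate 3 lay just above the lowest control, and the other 3 lay above every control. For replicate 2 this rests on its low TMM factor. Its FPKM, scaled by library size, was 7.60, below control replicate 5 at 14.4. The change was 1.22 ± 0.75 on the log2 scale (SE; edgeR, adjusted p = 0.261; exact permutation test, p = 0.444), 0.53 without ox-LDL replicate 5 and 1.74 without control replicate 5.

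Ms4a7, often used as a marker of macrophages, was not called. It was at 452, 144, 125, 247 and 210 CPM there and at 294, 578, 242, 228 and 386 CPM in the ox-LDL libraries. The groups overlapped over most of their range, with the highest control, replicate 1, above 4 of the 5 ox-LDL libraries in CPM. The exception, ox-LDL replicate 2, rests on its low TMM factor. In FPKM it was at 282, and control replicate 1 (341) lay above every ox-LDL library (292 or less). The change was 0.55 ± 0.38 on the log2 scale (SE; edgeR, adjusted p = 0.311; exact permutation test, p = 0.167), 0.24 without ox-LDL replicate 2 and 0.92 without control replicate 1.

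Ms4a8a, described in alternatively activated macrophages, had 28.0, 21.3, 26.7, 74.0 and 14.4 CPM in the controls and 13.4, 83.6, 16.1, 17.4 and 26.2 CPM in the ox-LDL libraries. Its highest library in each group, control replicate 4 and ox-LDL replicate 2, was among the 3 that held relatively more short genes. The change was -0.07 ± 0.56 on the log2 scale (SE; edgeR, adjusted p = 0.941; exact permutation test, p = 0.683). Its sign depended on single libraries, with -0.89 without ox-LDL replicate 2 and 0.46 without control replicate 4.

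Ms4a14 had 4.02 to 6.70 CPM in the controls (median 4.39) and 6.68 to 14.1 CPM in the ox-LDL libraries (median 7.56). In CPM, the groups touched only where ox-LDL replicate 2, at 6.68 CPM, lay just below control replicate 4. In FPKM, ox-LDL replicate 2 (0.98) lay below every control, and replicate 5 (1.44) lay within the control range of 1.12 to 1.61. The change was 0.76 ± 0.26 on the log2 scale (SE; edgeR, adjusted p = 0.0503; exact permutation test, p = 0.0159), and the adjusted p missed the threshold. Over 25 alternatives the adjusted p was 0.0228 (DESeq2) to 0.435 (limma on log2(FPKM + 1) without a filter). Ms4a4b, known from T cells, had 1, 1, 0, 2 and 9 counts in the controls and 3, 6, 3, 0 and 5 in the ox-LDL libraries, and was not tested. Of the 9 T and NK cell markers, Cd3e and Cd8a were at 0 in every control. They reached at most 0.0508 and 0.196 CPM by library size alone in the ox-LDL libraries. Lck was at 0.397 to 0.773 in the controls and at 0.491 to 1.56 in the ox-LDL libraries. Cd4 was at 0.290 to 0.932 in the controls and at 0 to 0.344 in the ox-LDL libraries.

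**Figure D2:**
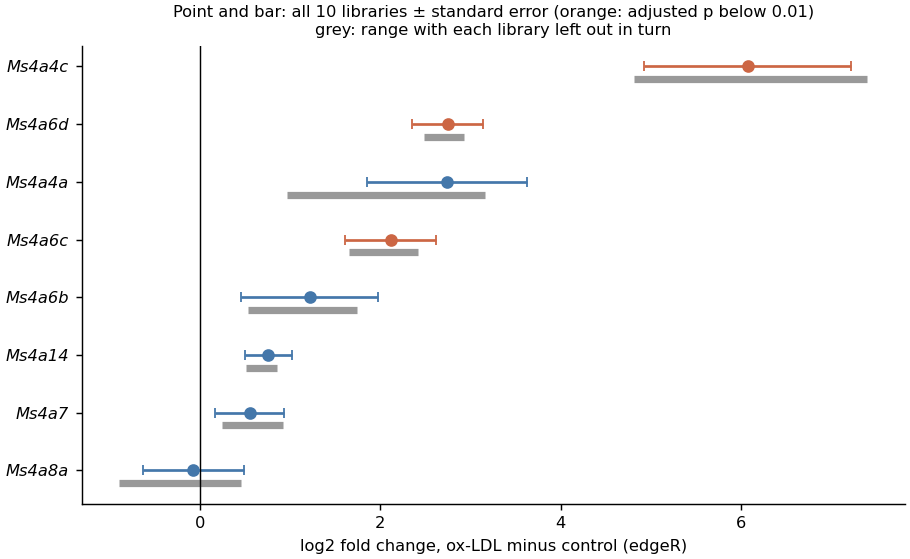
Log2 fold change of ox-LDL over control (x axis) for the 8 MS4A genes tested, with the standard error of edgeR's fit over 10 libraries as a bar and the range of fits with each library left out in grey below. The estimates of Ms4a4a ranged from 0.97 to 3.16 and those of Ms4a8a from -0.89 to 0.46, whereas those of Ms4a6d and Ms4a4c stayed far from 0.

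To compare the members with each other, their levels were set side by side in FPKM, which takes gene length into account. In the controls, Ms4a6d (213 ± 23.8 FPKM) and Ms4a7 (200.2 ± 86.4) led the family and did not differ beyond their spread, with Ms4a6d the higher of the pair in 3 of 5 libraries. Ms4a6c (43.4 ± 23.0) and Ms4a8a (35.7 ± 23.1) followed, and their ranges overlapped too. Ms4a6b (6.11 ± 4.87), Ms4a4a (4.63 ± 3.02), Ms4a4c (2.47 ± 3.26) and Ms4a14 (1.34 ± 0.191) came next, each overlapping with its neighbour. Ms4a4b was last at 0.114 ± 0.163 (SD, n = 5 for each). The gaps between Ms4a7 and Ms4a6c, between Ms4a8a and Ms4a6b and between Ms4a14 and Ms4a4b were the only ones without overlap.

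In the ox-LDL libraries, Ms4a6d stood alone at 1161 ± 453 FPKM, above Ms4a7 (253 ± 38.8) in every library and without overlap. Below them Ms4a6c (158 ± 101), Ms4a4c (119.5 ± 157), Ms4a8a (25.9 ± 14.4), Ms4a4a (24.2 ± 36.6), Ms4a6b (11.8 ± 11.6) and Ms4a14 (2.17 ± 1.22) formed a series in which each neighbour overlapped with the next. Ms4a4b stayed last at 0.154 ± 0.102 (SD, n = 5 for each). By these means, Ms4a4c was in the seventh place in the controls and in the fourth in the ox-LDL libraries. The lower places rest on replicate 5, since Ms4a4c was above Ms4a14 in 2 of 5 controls, and in the ox-LDL libraries the median of Ms4a6b (7.60 FPKM) was above that of Ms4a4a (5.61 FPKM).

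Summed over the 9 members, the level was 506 ± 106 FPKM in the controls (390.0 to 660) and 1756 ± 774 FPKM in the ox-LDL libraries (1020 to 2984), without overlap. Ms4a6d made up 36.6%, 51.0%, 53.0%, 35.4% and 39.4% of the sum in the controls and 66.4%, 68.2%, 70.6%, 68.1% and 62.3% in the ox-LDL libraries. The share of Ms4a7 was 51.6%, 31.7%, 31.4%, 40.2% and 36.3% in the controls and 16.3%, 15.5%, 18.3%, 20.5% and 8.99% in the ox-LDL libraries. The share of Ms4a6d was thus higher and that of Ms4a7 lower in every ox-LDL library than in any control. The share of Ms4a8a was also lower without overlap, at 3.14% to 15.2% against 0.773% to 2.83%, and that of Ms4a4c higher, at 0.129% to 1.50% against 1.95% to 13.3%. The mean share of Ms4a6c was 8.49% and 8.42%, with overlapping ranges. Shares of one sum are not independent of each other.

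**Figure D3:**
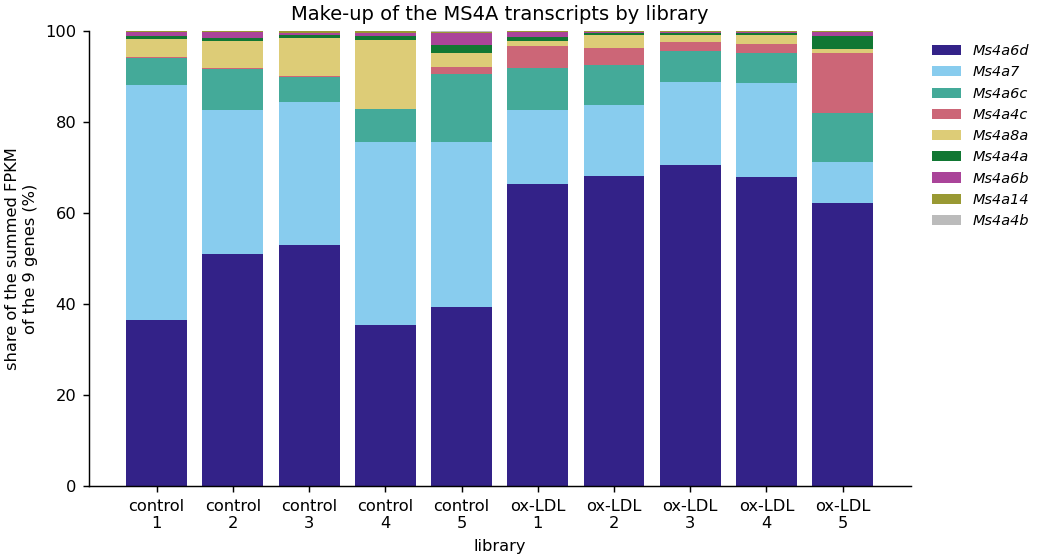
Share of each MS4A gene in the summed FPKM of the 9 genes (y axis, percent) in the 5 control and 5 ox-LDL libraries. Ms4a6d made up 35.4% to 53.0% in controls and 62.3% to 70.6% in ox-LDL libraries, and Ms4a4c reached 13.3% in ox-LDL replicate 5.

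Whether members of one named subgroup responded unequally was tested within libraries, by the log2 ratio of their counts with 0.5 added to each, which does not depend on how libraries are scaled. Of the 6 pairs within the Ms4a4 and Ms4a6 groups, 2 differed between conditions in a two-sided exact permutation test after Benjamini-Hochberg adjustment over the 6. The log2 ratio of Ms4a4a to Ms4a4c was 0.73, 0.47, -0.05, 1.69 and -0.90 in the controls and -3.58, -4.68, -3.14, -3.39 and -3.29 in the ox-LDL libraries. Ms4a4a had more counts than Ms4a4c in 3 controls and fewer in 2, and fewer in every ox-LDL library, with a difference of -4.00 between the means of the conditions (exact permutation test, p = 0.00794; adjusted 0.0238). The 2 replicates numbered 5, which had the highest counts of both genes, had ratios within 1 unit of the nearest other library of their group.

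The log2 ratio of Ms4a4b to Ms4a4c was -4.48 ± 1.09 in the controls and -9.41 ± 1.43 in the ox-LDL libraries (SD, n = 5 each), a difference of -4.94 without overlap (exact permutation test, p = 0.00794; adjusted 0.0238). Since Ms4a4b had at most 9 counts in any library, the sizes of these ratios depend on the 0.5 added, and their difference followed Ms4a4c. No difference was shown for the ratio of Ms4a4a to Ms4a4b, at 4.86 ± 0.721 and 5.79 ± 1.71 (exact permutation test, p = 0.294; adjusted 0.294).

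Among the Ms4a6 genes, the ratio of Ms4a6b to Ms4a6c was -2.59, -2.89, -3.18, -3.41 and -2.41 in the controls and -3.10, -3.96, -5.05, -5.10 and -3.38 in the ox-LDL libraries. Ms4a6b was below Ms4a6c in all 10 libraries, and ox-LDL replicates 1 and 5 overlapped with the controls. The difference of -1.22 gave p = 0.0397 in the exact permutation test and 0.0595 after adjustment. The ratio of Ms4a6b to Ms4a6d differed by -1.87 (exact permutation test, p = 0.0317; adjusted 0.0595) and that of Ms4a6c to Ms4a6d by -0.64 (p = 0.0635; adjusted 0.0762), and both overlapped between conditions. None of the 3 passed after adjustment.

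**Figure D4:**
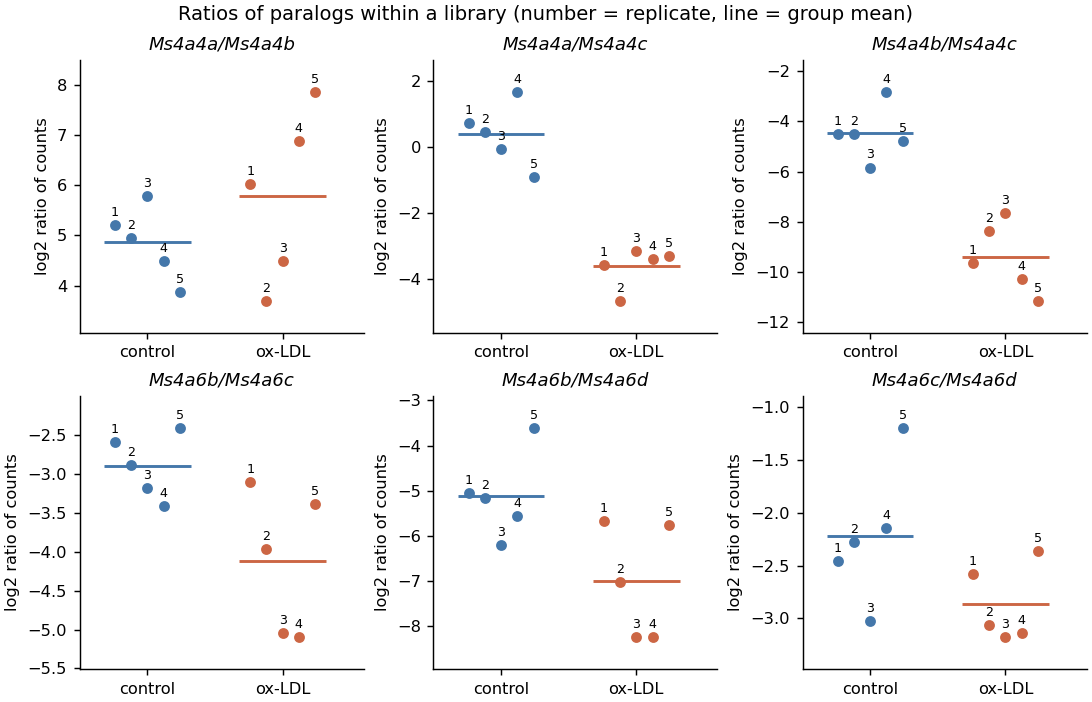
Log2 ratio of counts (y axis, different for each pair) of 2 paralogs within each control (blue) and ox-LDL (orange) library, with replicate numbers and a line at the group mean. The ratios of Ms4a4a and of Ms4a4b to Ms4a4c were lower in every ox-LDL library than in any control, and the other 4 pairs overlapped.

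For several members, the replicates numbered 5 were the highest libraries of their groups. How often this held over all genes was not counted. Control replicate 5 was above all other controls for 5 of the 9 members, Ms4a4a, Ms4a4b, Ms4a4c, Ms4a6b and Ms4a6c, and ox-LDL replicate 5 was above all other ox-LDL libraries for Ms4a4a, Ms4a4c, Ms4a6b, Ms4a6c and Ms4a6d. For Ms4a6d, control replicate 5 lay within the range of the others (235 CPM against 218 to 330). The excess of control replicate 5 over the mean of the other controls, taken as a percentage of the level in ox-LDL replicate 5, was 1.32% for Ms4a4c, 4.90% for Ms4a4a, 10.5% for Ms4a6c, 26.0% for Ms4a6b and 114% for Ms4a4b, which rests on 9 and 5 counts in these libraries. For the other members control replicate 5 lay below that mean, at -0.625% for Ms4a6d, -8.29% for Ms4a7, -14.3% for Ms4a14 and -88.2% for Ms4a8a. The cause of the high values was not tested. With both replicates numbered 5 left out, an alternative chosen after the data were seen, Ms4a6d and Ms4a4c remained called (2 members), and Ms4a6c had a log2 fold change of 1.88 (edgeR, adjusted p = 0.0125).

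Outside the 9 members, 4 further MS4A rows and the related genes Tmem176a and Tmem176b were in the table. Ms4a4d, which lies between Ms4a6b and Ms4a6d, had 0, 0, 0, 0 and 1 counts in the controls and 10, 2, 6, 3 and 12 counts in the ox-LDL libraries. It was above the controls in every ox-LDL library, but with 34 counts in all it was below the filter and was not tested. Ms4a1, the B cell gene, had 87 counts, Ms4a2, the mast cell gene, 2 and Ms4a20 1 over all libraries. Tmem176a and Tmem176b had log2 fold changes of 0.22 (adjusted p = 0.762) and -0.60 (adjusted p = 0.215) in edgeR and were not called.

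Of 6 genes named for the family as partners or linked receptors, 5 were tested, of which 1 rose and 1 fell at an adjusted p below 0.01. Nlrp3, the inflammasome sensor, was at 2.16 to 3.29 CPM in the controls (median 2.32) and at 5.74 to 33.2 CPM in the ox-LDL libraries (median 18.4), without overlap. It changed by 2.88 ± 0.47 on the log2 scale (SE; edgeR, adjusted p = 8.99e-04). Trem2, the lipid receptor, was at 1131 to 2040 CPM (median 1303) and at 292 to 888 CPM (median 313), again without overlap. It changed by -1.83 ± 0.38 on the log2 scale (SE; edgeR, adjusted p = 0.00382). That call was lost, with an adjusted p of up to 0.0170 in edgeR, when control replicate 1 or 4 or ox-LDL replicate 3, 4 or 5 was left out. Vsig4, described with MS4A6D, was at 22.4 CPM in control replicate 4, at 1.52 to 3.87 CPM in the other controls and at 1.09 to 7.11 CPM in the ox-LDL libraries. Its log2 fold change was -1.43 (edgeR, adjusted p = 0.196), -0.18 without control replicate 4 and -2.29 without ox-LDL replicate 2. Clec7a, which encodes Dectin-1, was at 2131 ± 728 CPM in the controls and 2011 ± 1099 CPM in the ox-LDL libraries (SD, n = 5 each), with a log2 fold change of -0.08 (edgeR, adjusted p = 0.905). Fcer1g, which encodes the signalling chain shared by Fc receptors, had a log2 fold change of 0.49 (edgeR, adjusted p = 0.423), which was -0.07 without ox-LDL replicate 2, and Tnfrsf18, with 44 counts in all, was not tested.

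The genes outside the family whose log2(CPM + 1) was most like that of Ms4a6d over the 10 libraries were Gm31223 (Pearson's r = 0.992), the interferon-inducible Ifi211 (r = 0.992) and Zup1 (r = 0.991). Ifi211 had a mean of 43.9 CPM in the controls and 489 CPM in the ox-LDL libraries. The points share their libraries and the difference between the groups, so these values describe likeness of pattern over 10 points and are no test.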

How the data were processed

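RNA-seq libraries of peritoneal macrophages, 5 control and 5 ox-LDL, were grouped by their sample labels. The authors sequenced total RNA on the BGISEQ-500 platform, aligned reads to mm9 with HISAT2 2.0.5 and assembled them with StringTie 1.3.3.13 (SAMtools 1.4, FastQC). The authors deposited estimated counts per gene, of which 13.6% were not whole, beside values scaled by gene length and library size, treated here as FPKM. The deposited files do not name that unit, and it was taken from the constant length per gene that counts divided by these values and by library size gave. The counting step and its use of strand are not given in the sources used here.

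Counts were rounded, 9788 circular RNA rows were left out, and genes were filtered with filterByExpr, scaled by TMM and tested in edgeR 4.0.16 (R 4.3.3) by the quasi-likelihood test, with Benjamini-Hochberg adjustment over 12654 genes and a threshold of 0.01, the false discovery rate used in the study. Single values were compared by two-sided exact permutation tests. Alternatives were DESeq2 1.42.0, limma 3.58.1 (voom, and log2(FPKM + 1)), other scalings, filters and thresholds, a replicate block, removal of length trends and leaving out each library. Genes named were the 9 members, other MS4A and Tmem176 rows, 6 partner genes, the 3 genes most like the called member with the lowest p in each direction (none was called lower), and cell markers. The members, lists and tests were chosen with earlier results of these data known. Coordinates came from GENCODE vM1 (NCBIM37). Promoters came from the RefSeq table of GRCm38.p6 and were matched by sequence to mm9. Coding sequences were aligned globally with Biopython 1.88. Counts and permutation tests limit precision to what 5 libraries a group allow.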

Additional observations from a re-analysis of the deposited data

Results flagged for a closer look

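Sets of 5 libraries were examined in each group for the CPM of the members, their summed FPKM and the within-library ratios. Of these 32 sets, 9 had a library whose gap to the nearest other was more than 0.71 of the range, Dixon's limit for 5 values. That limit flags about 1 in 20 sets of independent, normally distributed values, or 1.6 of 32. The CPM were on a linear scale and the sets share the same 10 libraries, so setting 9 against 1.6 is no test. Ms4a4a was at 77.0 CPM in ox-LDL replicate 5 and at 9.96 or less in the others, a gap of 0.904 of the range. Ms4a4c was at 755 CPM in ox-LDL replicate 5 against 183 in the next library (0.788), and at 11.3 CPM in control replicate 5 against 1.83 in the next control (0.909). Ms4a4b was at 0.391 CPM in control replicate 5 against 0.103 in the next control (0.737), which rests on 9 and 2 counts. Ms4a6d was at 330 CPM in control replicate 1 against 238 in the next control (0.822). Ms4a8a was at 74.0 CPM in control replicate 4 against 28.0 (0.772) and at 83.6 CPM in ox-LDL replicate 2 against 26.2 (0.817). Ms4a14 was at 14.1 CPM in ox-LDL replicate 1 against 8.37 in the next ox-LDL library (0.773). The log2 ratio of Ms4a4a to Ms4a4c was -4.68 in ox-LDL replicate 2 against -3.58 in the nearest other (0.712).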

How the results depend on the processing

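Ms4a6d was called under all 25 alternatives and Ms4a4c under 24, and 0 members were called lower under any of 27. The number of members called higher was 1 when genes with few counts were kept in edgeR, 2 to 4 under the other alternatives, and 2 to 3 with a library left out. It was 2 with limma on log2(FPKM + 1) without a filter, which also kept such genes. The number of all genes called was 1866 and moved to 3009 with DESeq2, 1243 with limma on log2(FPKM + 0.1), 1027 with limma on log2(FPKM + 1) without a filter, 2865 with each library's length trend removed, 3365 at an adjusted p below 0.05 and 849 with an absolute log2 fold change above 2. With a single library left out it was 1262 to 3257, the highest value being that without ox-LDL replicate 2. The log2 fold change of Ms4a8a ranged from -0.89 to 0.46 with a library left out and was positive without control replicate 4 (0.46) and without ox-LDL replicate 1 (0.12), 3 (0.092), 4 (0.079) or 5 (0.017). Among the genes named beside the members, tested in this way after the data were seen, the log2 fold change was -0.38 to 0.094 for Clec7a, -0.069 to 0.66 for Fcer1g and -0.099 to 0.42 for Tmem176a with a library left out. With a library left out, the difference of the log2 ratio was -1.48 to -0.98 for Ms4a6b to Ms4a6c, -2.19 to -1.49 for Ms4a6b to Ms4a6d and -0.84 to -0.39 for Ms4a6c to Ms4a6d, and the side of 0.05 on which the exact permutation test fell changed in 5, 6 and 2 of the 10 cases. The causes were not tested. The replicate numbers do not pair the libraries by their labels, and same-numbered libraries deviated with correlations of -0.42 to 0.51. With the replicate block, 1434 genes and 3 members were called, and the log2 fold changes were 5.82 for Ms4a4c, 2.57 for Ms4a6d, 1.94 for Ms4a6c and 1.81 for Ms4a4a. Depth limits Ms4a4b and Ms4a4d, with 30 and 34 counts in all.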
